A study of Mus musculus with 10 samples.

Results

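Lens fiber membrane and beaded filament genes are 10 genes that were taken by symbol from the 50763 gene rows of the count table: Mip, Lim2, Bfsp1, Bfsp2, Lgsn, Dnase2b, Birc7, Aqp1, Aqp5 and Grifin. All 10 were present in the table and had counts in every library, with a lowest count of 29 (Dnase2b). The study compared lens epithelia of wild-type (WT) mice with those of OVE853 and OVE918, transgenic families in which the murine αA-crystallin promoter, active in the lens only, drives a secreted and constitutively active human TGF-β1. All animals were inbred FVB/N mice of both sexes at 3 weeks of age, the transgenic ones homozygous and carrying an anterior subcapsular plaque, and none received a treatment. Each library came from 1 pool of whole lens epithelial explants, with the plaque still in its epithelium, from up to 9 mice for WT (n = 3) and OVE853 (n = 3) and up to 7 mice for OVE918 (n = 4). Total counts per library ran from 24073311 to 31908525.

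The lens grows by turning epithelial cells at its equator into fiber cells, which elongate, fill with crystallins and then lose their nuclei and organelles. Fiber cells are joined and supported by proteins made almost nowhere else: Mip (aquaporin 0, the main water channel of the fiber membrane and also an adhesion protein), Lim2 (the fiber membrane protein MP20), and Bfsp1 and Bfsp2 (filensin and phakinin, the pair that makes up the beaded filament, an intermediate filament particular to the lens). Lgsn encodes lengsin and Grifin a galectin-related protein found between lens fibers, Dnase2b encodes the nuclease that clears DNA as fiber nuclei are lost, Birc7 encodes livin of the inhibitor of apoptosis family, and Aqp1 and Aqp5 are further water channels, of which Aqp1 belongs to the lens epithelium. FVB/N mice are known to carry a deletion within Bfsp2 and to lack assembled beaded filaments, a limit that WT and both transgenic lines share, so Bfsp1 and Bfsp2 values here are transcript levels without that structure.

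Counts are given as CPM, the gene's counts relative to the library's total over the tested genes, scaled by the trimmed mean of M-values (TMM). Levels of different genes are compared only per exon length, as TMM-scaled FPKM (CPM divided by exon length in kilobases). By median FPKM over the 10 libraries the order was Mip (1579), Grifin (1349), Lim2 (1007), Aqp1 (283), Bfsp1 (256), Aqp5 (49.9), Bfsp2 (41.0), Lgsn (12.5), Birc7 (3.17) and Dnase2b (1.04). Mip, Grifin and Lim2 had overlapping FPKM ranges, from 1010.2 to 2568, from 718 to 1735 and from 528 to 1948. Mip was above Lim2 in every single library, whereas the order of Grifin with each of them changed between libraries. Aqp1 (162 to 472 FPKM) and Bfsp1 (94.9 to 585 FPKM) formed a lower pair with overlapping ranges, as did Aqp5 (35.1 to 78.9 FPKM) and Bfsp2 (26.0 to 64.6 FPKM). Bfsp2 stood well below its filament partner, with the highest Bfsp2 library (64.6 FPKM) under the lowest Bfsp1 library (94.9 FPKM). The Bfsp2 FPKM used the exon length of the reference gene, with no allowance for the deletion that FVB/N mice carry in it. The balance of the pair without that deletion therefore cannot be read from these values.

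The 9 members that reached 2 FPKM in at least 5 libraries were tested with edgeR's quasi-likelihood test. None of them passed the limits for a differentially expressed gene (DEG, a Benjamini-Hochberg FDR up to 0.05 together with a log2 fold change of 1 or more in either direction) in any of the 3 contrasts. Of all 11097 genes tested, 4.42% were DEGs in OVE853 against WT, 5.60% in OVE918 against WT and 0.487% in OVE918 against OVE853. At an unadjusted p under 0.05, the counts were 2 of 9 members in OVE853 against WT, 3 in OVE918 against WT and 6 between the lines, beside 34.1%, 33.2% and 22.9% of all genes. By the FDR alone, 2 members passed in OVE853 against WT (Aqp1 and Grifin), 1 in OVE918 against WT (Aqp5) and 0 between the lines, where 15.8%, 19.0% and 1.32% of all genes passed. The count between the lines depended on the fit. By the FDR alone DESeq2 passed 4 members there (Bfsp2, Aqp1, Aqp5 and Grifin), beside 8.62% of all genes. Limma-voom with sample weights passed the same 4 with Mip and Lim2, beside 19.5%. DESeq2 called 1 member, Birc7 in OVE918 against WT, where it called 6.20% of all genes. By the FDR alone it passed 3 members in that contrast (Bfsp2, Birc7 and Aqp5), beside 2730 of 11097 genes. Among all 10 members, the libraries of the groups did not overlap for 2 in OVE853 against WT, 3 in OVE918 against WT and 4 between the lines, beside 45.4%, 27.2% and 29.5% of all genes. The median log2 fold change of the tested members was -0.17, 0.58 and 0.75 in these contrasts, beside -0.01, 0.01 and -0.02 for all genes. All contrasts share libraries with one another, the first 2 their WT libraries. In pooled tissue, fewer fiber cells and less RNA per fiber cell cannot be told apart.

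**Figure D1:**
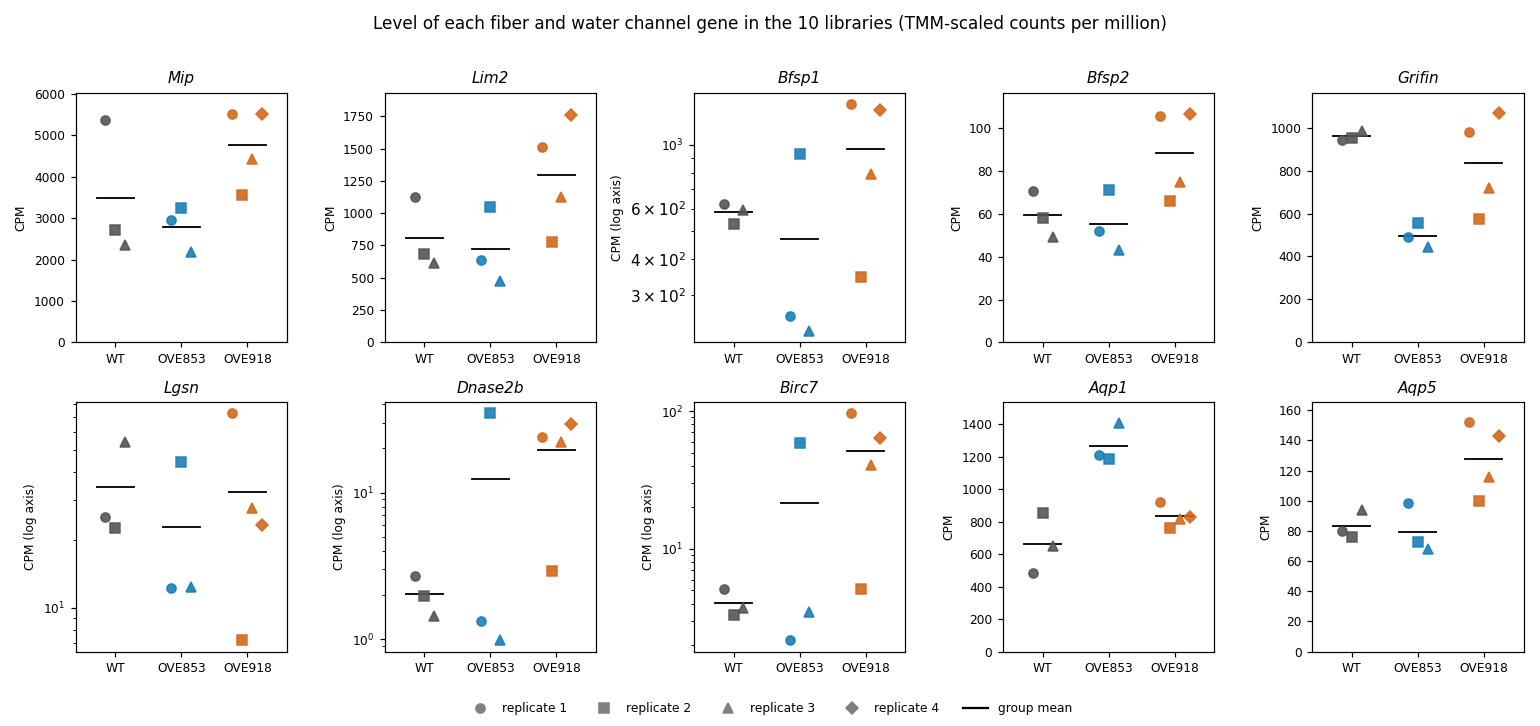
Level of each of the 10 genes in every library, in CPM, by group on the horizontal axis; Bfsp1, Lgsn, Dnase2b and Birc7 are on log axes, symbols mark the replicate and lines the group means. Grifin in OVE853 (442 to 557 CPM) and Aqp1 in OVE853 (1184 to 1406 CPM) lie clear of WT, while Dnase2b and Birc7 split the transgenic libraries into high and low ones.

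Gene positions are those of GENCODE on GRCm39. Exon numbers count the merged exons of the gene's primary transcripts, which also gave its length. Of the fiber membrane proteins, Mip is at chr10:128061700-128067681 (+ strand) with 4 exons and Lim2 at chr7:43079492-43085420 (+ strand) with 5 exons. Mip stood at 5360.4, 2724 and 2345 CPM in the WT libraries, at 2954, 3241 and 2173 CPM in OVE853, and at 5524, 3551, 4435 and 5524 CPM in OVE918. WT replicate 1 was as high as the OVE918 libraries and the other WT libraries were within the OVE853 range, while every OVE918 library was above every OVE853 library. The Mip log2 fold change from WT to OVE853 was -0.32 ± 0.30 (SE; FDR = 0.476), that from WT to OVE918 was 0.45 ± 0.28 (FDR = 0.299), and it was 0.77 ± 0.29 between the lines (95% interval 0.14 to 1.40, FDR = 0.159). Without WT replicate 1 the first of these was 0.14, and the second was 0.91 and passed the FDR limit (FDR = 0.0161). Lim2 stood at 1122, 685 and 617 CPM in WT, at 638, 1045 and 477 CPM in OVE853, and at 1510.1, 776, 1123 and 1761 CPM in OVE918. Its groups overlapped in all 3 contrasts, again with WT replicate 1 the highest WT library. Lim2 had log2 fold changes of -0.17 ± 0.36 (FDR = 0.765), 0.68 ± 0.34 (FDR = 0.195) and, between the lines, 0.84 ± 0.34 (FDR = 0.183).

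The beaded filament genes, Bfsp1 at chr2:143668448-143705093 (- strand) with 8 exons and Bfsp2 at chr9:103302120-103357619 (- strand) with 7 exons, differed in how much they varied. Bfsp1 stood at 623, 529 and 593 CPM in WT, at 254, 932 and 225 CPM in OVE853, and at 1389, 346, 792 and 1328 CPM in OVE918. The WT libraries were close together, with a highest over lowest of 1.18, whereas that ratio was 4.14 in OVE853 and 4.02 in OVE918, and libraries of both lines lay on both sides of WT. For OVE853 against WT the Bfsp1 log2 fold change was -0.31 ± 0.62 (95% interval -1.71 to 1.10, FDR = 0.752), for OVE918 it was 0.73 ± 0.59 (-0.61 to 2.06, FDR = 0.435) and 1.03 ± 0.60 between the lines (FDR = 0.322). Bfsp2 stood at 70.7, 58.1 and 49.2 CPM in WT, at 52.0, 71.2 and 43.2 CPM in OVE853, and at 106, 65.9, 75.0 and 107 CPM in OVE918. Only OVE918 replicate 2 lay within the WT range among the OVE918 libraries, and OVE853 libraries lay below, within and just above it. For Bfsp2 the log2 fold changes were -0.10 ± 0.23 (FDR = 0.790), 0.58 ± 0.22 (95% interval 0.09 to 1.06, FDR = 0.0928) and 0.68 ± 0.22 between the lines (FDR = 0.125). With DESeq2 the OVE918 difference from WT passed the FDR limit (0.59, FDR = 0.0443).

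Grifin (chr5:140548873-140550827, - strand, 5 exons), the galectin-related fiber protein, was the most even member among WT libraries, at 942, 954 and 985 CPM. In OVE853 it stood at 492, 557 and 442 CPM, and in OVE918 at 981, 576, 718 and 1067 CPM. Every OVE853 library was below every WT library, and OVE918 spread from below to above the WT range. Grifin was 1.93-fold lower in OVE853 than in WT (log2 fold change -0.95 ± 0.20, 95% interval -1.40 to -0.50, FDR = 0.0121), which passed the FDR limit and missed the fold limit, and without OVE853 replicate 2 it passed both (log2 fold change -1.04, FDR = 0.0303). It missed the FDR limit without OVE853 replicate 1 (-0.95, FDR = 0.0562) and without OVE853 replicate 3 (-0.88, FDR = 0.0631). In OVE918 the log2 fold change was -0.20 ± 0.19 (FDR = 0.502), and between the lines 0.75 ± 0.19 (FDR = 0.0778), with all OVE918 libraries above all OVE853 libraries, and this difference between the lines passed the FDR limit without OVE918 replicate 2 (0.89, FDR = 0.0304). Lgsn, which encodes the fiber protein lengsin, is at chr1:31215482-31243806 (+ strand) with 5 exons. It stood at 25.3, 22.6 and 54.3 CPM in WT, at 12.2, 44.0 and 12.3 CPM in OVE853, and at 72.6, 7.19, 27.6 and 23.3 CPM in OVE918. The 3 groups overlapped, and the highest and the lowest library of all were both OVE918. WT replicate 3, the highest WT library for Lgsn, also had the highest sum of retinal neuron markers (979 CPM), whose part in the Lgsn level was not tested. The Lgsn log2 fold changes were -0.58 ± 0.82 (FDR = 0.642), -0.06 ± 0.76 (FDR = 0.965) and 0.52 ± 0.77 (FDR = 0.705). For OVE918 against WT the 95% interval was -1.80 to 1.67, so the sign of a change within those bounds was not resolved at this spread.

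Dnase2b, the nuclease of fiber denucleation, at chr3:146286738-146321351 (- strand) with 7 exons, was the lowest member. It stood at 2.68, 1.96 and 1.44 CPM in WT, at 1.33, 34.8 and 0.987 CPM in OVE853, and at 24.0, 2.91, 22.1 and 29.4 CPM in OVE918. OVE853 replicate 2 and OVE918 replicates 1, 3 and 4 were high, and the other 6 libraries were low, although all OVE918 libraries were above all WT libraries. Dnase2b reached 2 FPKM in 4 libraries only and was therefore not among the 11097 genes tested. With edgeR's own expression filter, which kept 18058 genes, the fitted log2 differences were 2.61 ± 1.32 for OVE853 against WT (FDR = 0.201), 3.30 ± 1.31 for OVE918 against WT (95% interval 0.36 to 6.24, FDR = 0.114) and 0.69 ± 1.12 between the lines (FDR = 0.779).

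Birc7, at chr2:180570332-180575803 (+ strand) with 7 exons, split the libraries in the same way. It stood at 5.10, 3.31 and 3.72 CPM in WT, at 2.18, 58.5 and 3.51 CPM in OVE853, and at 96.7, 5.10, 40.7 and 64.0 CPM in OVE918. The high libraries were again OVE853 replicate 2 and OVE918 replicates 1, 3 and 4, while OVE918 replicate 2 was level with the highest WT library and just above it before rounding. The fitted Birc7 difference was 12.8-fold in OVE918 against WT (log2 fold change 3.68 ± 1.37, 95% interval 0.55 to 6.81) and did not pass (FDR = 0.0996). It passed without OVE853 replicate 2 (FDR = 0.0229), a library outside that contrast that enters the shared estimate of spread, and in a fit of only the WT and OVE918 libraries (FDR = 0.0418). In OVE853 against WT the log2 fold change was 2.40 ± 1.36 (FDR = 0.243), and it was -0.51 without OVE853 replicate 2. Between the lines the Birc7 log2 fold change was 1.28 ± 1.19 (FDR = 0.529). It was 4.18 without OVE853 replicate 2 (FDR = 0.151) and was 0.75 without OVE853 replicate 1 and 0.78 without OVE853 replicate 3 or OVE918 replicate 1.

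Bfsp1 was highest in the same libraries as Dnase2b and Birc7, but its WT libraries were not among the low ones. At 529 to 623 CPM they lay above OVE853 replicates 1 and 3 (254 and 225 CPM) and OVE918 replicate 2 (346 CPM). The start regions of these 3 members are shown because the deviations of their transcripts from group means ran together. Each is the RefSeq window from 250 bases before to 50 bases after the gene start, 5′ to 3′, from a table on GRCm38.p6, and each matched 1 place on GRCm39, the build the counts were made on. The Birc7 window was chr2:180570566-180570865 (+ strand), the Dnase2b window chr3:146321304-146321603 (- strand) and the Bfsp1 window chr2:143705044-143705343 (- strand). The RefSeq start of Birc7 lies downstream of its GENCODE start, so the whole Birc7 window is inside the gene span given above, whereas the other windows extend beyond theirs. Capitals mark a heat shock element of the form GAANNTTC or TTCNNGAA, the inverted repeat that heat shock factors such as the lens factor Hsf4 bind, or a Maf core site, TGCTGA or its reverse complement TCAGCA on the printed strand.
Birc7: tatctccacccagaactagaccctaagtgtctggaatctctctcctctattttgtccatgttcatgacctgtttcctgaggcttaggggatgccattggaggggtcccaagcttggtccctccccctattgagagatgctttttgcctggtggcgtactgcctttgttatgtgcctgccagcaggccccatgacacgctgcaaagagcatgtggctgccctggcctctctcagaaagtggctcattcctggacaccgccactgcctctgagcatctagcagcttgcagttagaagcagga
Dnase2b: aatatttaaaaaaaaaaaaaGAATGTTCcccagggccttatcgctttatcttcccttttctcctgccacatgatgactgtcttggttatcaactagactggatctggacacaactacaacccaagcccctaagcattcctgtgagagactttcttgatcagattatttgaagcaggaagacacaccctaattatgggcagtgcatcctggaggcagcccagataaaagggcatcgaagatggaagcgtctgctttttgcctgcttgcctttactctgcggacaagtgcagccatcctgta
Bfsp1: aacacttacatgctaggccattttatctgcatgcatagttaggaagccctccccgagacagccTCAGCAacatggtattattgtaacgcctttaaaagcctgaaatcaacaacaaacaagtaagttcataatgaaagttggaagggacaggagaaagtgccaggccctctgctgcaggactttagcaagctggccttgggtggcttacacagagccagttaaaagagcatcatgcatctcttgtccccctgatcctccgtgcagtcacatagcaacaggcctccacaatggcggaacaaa
The Dnase2b window held 1 GAANNTTC, the Bfsp1 window 1 Maf core site, and the Birc7 window none of these letters. Of the 32841 complete promoter windows in the table, 7.86% held GAANNTTC, 8.52% TTCNNGAA and 19.5% a Maf core site on either strand, and among all 10 members 1, 0 and 4 did (the Maf core site in Bfsp1, Lgsn, Lim2 and Mip). A match describes the letters only, and binding was not measured.

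The split of Dnase2b and Birc7 was part of a wider pattern between libraries of 1 group. The SD of log2 levels within groups was 1.84 for Birc7, 1.82 for Dnase2b, 1.12 for Lgsn and 0.86 for Bfsp1, and the other members ranged from 0.24 (Aqp1) to 0.52 (Lim2). The median over tested genes was 0.18, and 99.9% of them had a smaller SD than Birc7 and 69.8% a smaller one than Aqp1, the steadiest member. OVE918 replicate 2 was the lowest library of its group for 10 of 10 members, OVE853 replicate 2 the highest of its group for 8 and OVE853 replicate 3 the lowest for 7. The deviations from group means ran together most closely for Birc7 with Bfsp1 (r = 0.98), Birc7 with Dnase2b (r = 0.96) and Bfsp2 with Lim2 (r = 0.97), whereas those of Aqp1 had r from -0.56 (with Mip) to 0.15 (with Grifin). These r are descriptions over 10 libraries that share depth and scaling, with 1 deviation per library.

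**Figure D2:**
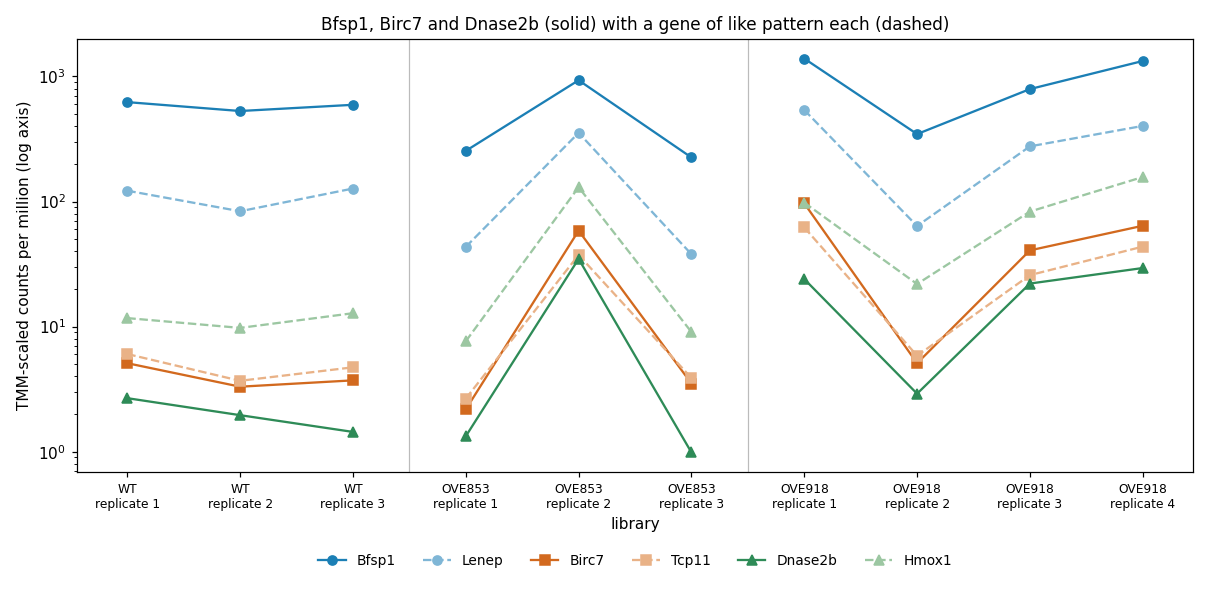
CPM (log axis) of Bfsp1, Birc7 and Dnase2b (solid lines) and of Lenep, Tcp11 and Hmox1 (dashed lines) in each library, with lines joining libraries of 1 group for reading only. OVE853 replicate 2 and OVE918 replicates 1, 3 and 4 are high in all 6 genes, for example 34.8, 24.0, 22.1 and 29.4 CPM of Dnase2b beside at most 2.91 CPM elsewhere.

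Genes outside the set followed the same libraries. For each member, the tested genes with the highest r on log2 CPM over the 10 libraries are named, chosen for that value and so given with no test. Birc7 was most like Tcp11, known as a testis gene (r = 0.998, rho = 0.988, r = 0.997 without the 2 libraries farthest from the median), Ube2o, a ubiquitin-conjugating enzyme known from reticulocyte maturation (r = 0.992), and Eif5b, a translation initiation factor (r = 0.977, rho = 0.733). Tcp11 stood at 6.04, 3.69 and 4.73 CPM in WT, at 2.66, 37.4 and 3.88 CPM in OVE853, and at 62.1, 5.85, 25.8 and 43.6 CPM in OVE918, high in the same 4 libraries. Dnase2b was most like Hmox1, the heme oxygenase induced by oxidative stress (r = 0.982, rho = 0.939), Btf3l4 (r = 0.981, rho = 0.891) and again Eif5b (r = 0.981, rho = 0.867). Hmox1 was at 130.1 CPM in OVE853 replicate 2 and at 97.9, 83.1 and 157 CPM in OVE918 replicates 1, 3 and 4, against 7.64 to 21.9 CPM in the other 6 libraries. Bfsp1 was most like Lctl, a klotho family gene (r = 0.985), Lenep, a lens protein gene (r = 0.978), and Inpp5a, an inositol phosphatase (r = 0.955).

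A crystallin was among the 3 most like genes of Lim2, Mip and Grifin. Lim2 and Bfsp2 were each other's most like gene (r = 0.978, rho = 0.988), followed for Lim2 by the β-crystallins Cryba4 (r = 0.971) and Cryba1 (r = 0.967) and for Bfsp2 by Rer1 (r = 0.965) and the ferritin light chain gene Ftl1 (r = 0.963). Genes like Mip included Timeless (r = 0.965) and Cryba1 (r = 0.963), and Grifin was most like Cryba2 (r = 0.982), Basp1 and Park7. Lgsn had the loosest neighbours, Kifc3 (r = 0.944), Pip4k2a and Mir124a-1hg (r = 0.927). Aqp1 and Aqp5 were most like Kri1 (r = 0.963) and Rnaseh2c (r = 0.969), with Sptlc1 and Serpinb6b next for Aqp1 and Fxyd1 and Txnl4a next for Aqp5.

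The library names in the authors' code carry an R number, whose meaning the sources used here do not give, for 8 of the 10 libraries. Both R4 libraries were high in Birc7 (58.5 CPM in OVE853 replicate 2 and 96.7 CPM in OVE918 replicate 1) and all 3 R2 libraries were low (3.31 CPM in WT, 3.51 CPM in OVE853 and 5.10 CPM in OVE918). Among the R3 libraries WT (3.72 CPM) and OVE853 (2.18 CPM) were low and OVE918 (40.7 CPM) was high. The R number was entered as a factor in a fit in which the libraries without one, WT replicate 1 and OVE918 replicate 4, shared 1 level. In it Birc7 differed from WT by 0.57 ± 0.88 on the log2 scale for OVE853 (FDR = 0.695) and by 2.58 ± 0.77 for OVE918 (FDR = 0.0681). In that fit 0 members were DEGs in each contrast. Of all 11097 genes, 494 were DEGs in OVE853 against WT, 643 in OVE918 against WT and 33 between the lines. By the FDR alone Aqp1 and Grifin passed in OVE853 against WT, beside 1029 of all genes. Bfsp2 (0.46, FDR = 0.0367) and Aqp5 (0.59, FDR = 0.0447) passed in OVE918 against WT, beside 1715. Dnase2b within R2 was at 1.96, 0.987 and 2.91 CPM in WT, OVE853 and OVE918, and within R3 at 1.44, 1.33 and 22.1 CPM. The part of the R number in the split was otherwise not tested.

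The water channel genes are Aqp1 at chr6:55313068-55325540 (+ strand) and Aqp5 at chr15:99488532-99492710 (+ strand), each with 4 exons. Aqp1 stood at 483, 851 and 651 CPM in WT, at 1209, 1184 and 1406 CPM in OVE853, and at 922, 763, 819 and 832 CPM in OVE918. Every OVE853 library was above every WT and every OVE918 library, and OVE918 overlapped WT. Aqp1 was 1.91-fold higher in OVE853 than in WT (log2 fold change 0.94 ± 0.18, 95% interval 0.54 to 1.34, FDR = 0.00721), past the FDR limit and short of the fold limit, which it passed without WT replicate 2 (1.16, FDR = 0.00252). The OVE918 log2 fold change was 0.33 ± 0.17 (FDR = 0.197), and between the lines it was -0.60 ± 0.17 (95% interval -0.97 to -0.23, FDR = 0.0880). The OVE918 difference passed the FDR limit without WT replicate 2 (0.56, FDR = 0.0383), and that between the lines without WT replicate 1 (FDR = 0.0453). Aqp1 is also made outside the lens, in ciliary epithelium, endothelium and erythrocytes. Summed markers of non-pigmented ciliary epithelium (6 of 6 genes above 3 counts) were lower in OVE853 (49.9 to 69.4 CPM) than in WT (169 to 257 CPM), those of endothelium (7 of 7) were 18.9 to 33.4 CPM beside 23.0 to 124 CPM, and those of erythrocytes (4 of 7, with Hba-a2 at 0 counts) 7.71 to 34.4 CPM beside 20.5 to 42.6 CPM. Their part in the Aqp1 level was not tested.

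Aqp5 stood at 80.1, 75.6 and 94.0 CPM in WT, at 98.4, 72.5 and 67.7 CPM in OVE853, and at 152, 100.1, 116 and 143 CPM in OVE918. All OVE918 libraries were above all libraries of the other groups, with OVE918 replicate 2 just over OVE853 replicate 1. In OVE918 Aqp5 was 1.54-fold higher than in WT (log2 fold change 0.62 ± 0.17, 95% interval 0.24 to 0.99, FDR = 0.0283) and 1.61-fold higher than in OVE853 (0.68 ± 0.17, FDR = 0.0763; -0.06 under crystallin scaling), and in OVE853 the log2 fold change against WT was -0.07 ± 0.18 (FDR = 0.820). The OVE918 difference from WT missed the FDR limit when WT replicate 1 (FDR = 0.0634), WT replicate 2 (FDR = 0.0968), OVE918 replicate 1 (FDR = 0.0742) or OVE918 replicate 4 (FDR = 0.0636) was left out, and under crystallin scaling (0.35, FDR = 0.645). The difference between the lines passed it without WT replicate 3 (FDR = 0.0467) or OVE918 replicate 2 (FDR = 0.0366). Aqp5 is abundant in corneal epithelium too, and summed cornea markers (5 of 7 genes above 3 counts, with Kera at 0 counts) were 238 to 1620.0 CPM in WT, 63.6 to 97.0 CPM in OVE853 and 27.7 to 87.8 CPM in OVE918. Their part in the Aqp5 level was not tested. Of the 9 other aquaporin genes only Aqp4 was expressed enough to test, and it fell in both lines, from 81.0 CPM in WT to 37.8 CPM in OVE853 (log2 fold change -1.10, FDR = 0.0284) and 24.9 CPM in OVE918 (-1.70, FDR = 0.00139). Aqp4 is the water channel of Müller glia, and the 6 summed markers of that cell, Aqp4 among them, were 519 to 1729 CPM in WT, 245 to 280.2 CPM in OVE853 and 137 to 262 CPM in OVE918.

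**Figure D3:**
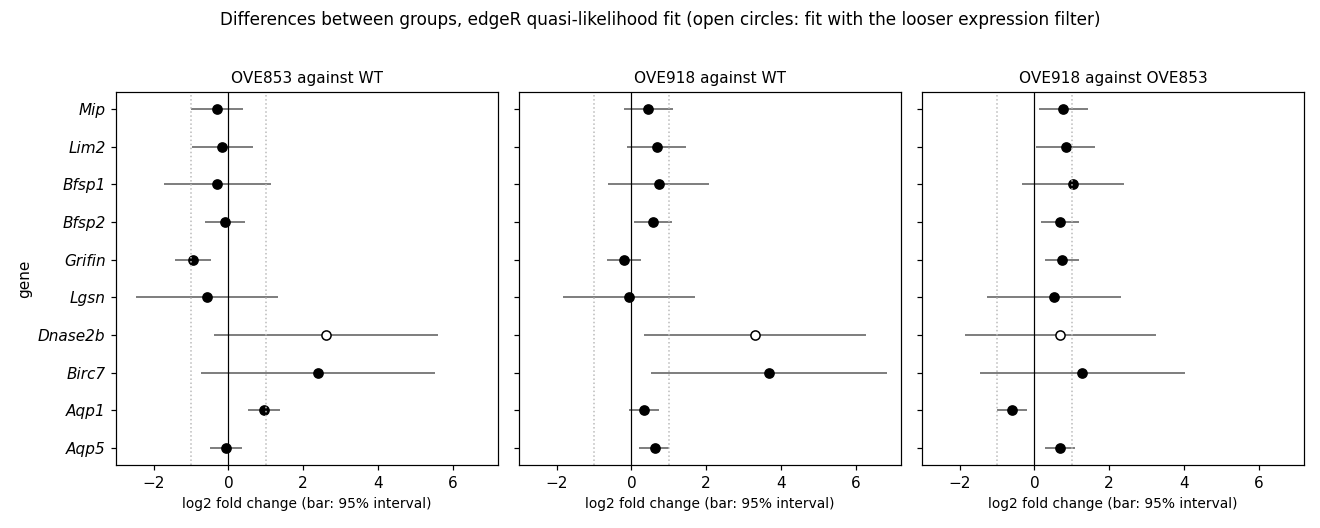
Log2 fold change of each gene in the 3 contrasts (points) with its 95% interval (bars), from edgeR's quasi-likelihood fit, with dotted lines at the fold limit of 1; the open circle is Dnase2b from the fit with the looser expression filter. The intervals of Aqp1 (0.54 to 1.34) and Grifin (-1.40 to -0.50) in OVE853 are narrow and off 0, and those of Dnase2b and Birc7 are the widest.

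Because the fiber proteins accompany crystallins, each member was also set against the summed counts of 16 crystallin genes of its own library. These made up 25.2 to 27.0% of all counts in WT, 17.4 to 22.8% in OVE853 and 21.7 to 34.1% in OVE918. Grifin per 1000 crystallin counts was 3.24 to 3.89 in WT, 2.41 to 2.73 in OVE853 and 2.43 to 2.68 in OVE918. Both lines were below WT in every library, and the 2 lines coincided. With crystallin counts as the scaling in edgeR, Grifin had log2 differences from WT of -0.49 ± 0.31 for OVE853 (FDR = 0.234) and -0.50 ± 0.28 for OVE918 (FDR = 0.384), and neither passed. That scaling moved the median of all genes to 0.47 and -0.19, against which Grifin was the lower in both. On it, 52.2% and 10.5% of genes had groups that did not overlap.

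Bfsp2 stood at 0.194 to 0.243 per 1000 crystallin counts in WT, 0.267 to 0.308 in OVE853 and 0.254 to 0.305 in OVE918. It was above WT in every transgenic library, with log2 fold changes of 0.35 ± 0.32 (FDR = 0.411) and 0.31 ± 0.30 (FDR = 0.707), the first below and the second above the median of all genes on that scale. Mip was nearly constant over the 7 transgenic libraries on this scale, at 13.4 to 16.4, and WT libraries lay on both sides of them, at 9.26 to 18.4. Aqp1, the epithelial channel, was 1.66 to 3.33 in WT, 5.12 to 8.67 in OVE853 and 2.09 to 3.53 in OVE918. Under crystallin scaling Aqp1 was the 1 member called, at a log2 fold change of 1.41 ± 0.31 in OVE853 against WT (FDR = 1.56e-04) and -1.32 ± 0.28 between the lines (FDR = 1.72e-04), where 10.0% and 10.7% of all genes were called and the medians of all genes were 0.47 and -0.71. Birc7 and Dnase2b kept their split, with Birc7 at 0.0114 to 0.253 within OVE853 and 0.0236 to 0.244 within OVE918 beside 0.0129 to 0.0175 in WT.

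**Figure D4:**
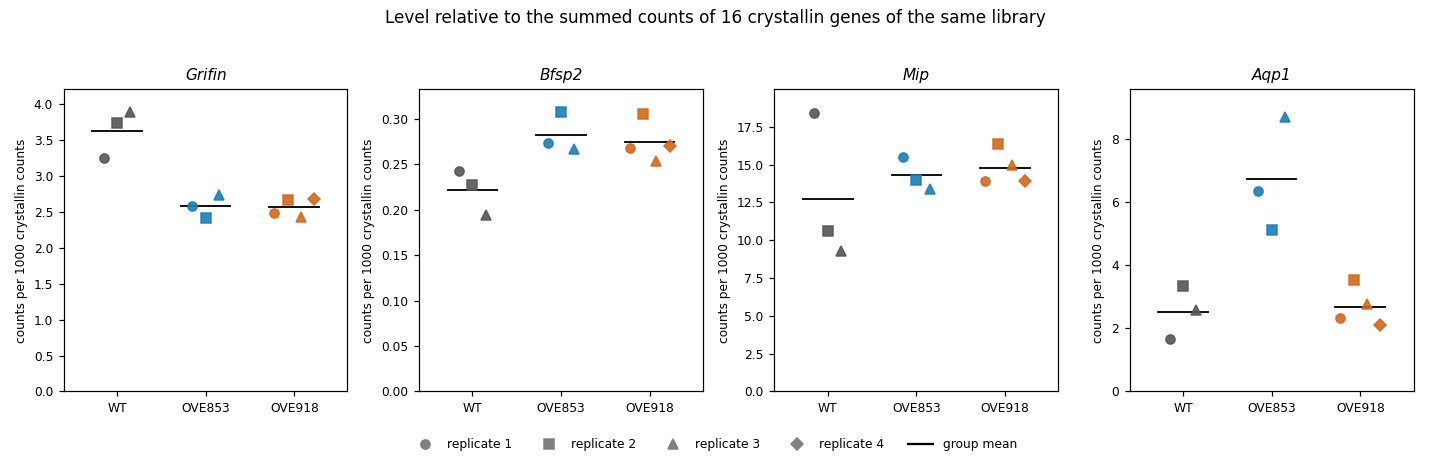
Counts of Grifin, Bfsp2, Mip and Aqp1 per 1000 counts of 16 crystallin genes in the same library, by group, with symbols for the replicate and lines for the group means. Grifin is lower in all transgenic libraries (at most 2.73) than in WT (at least 3.24), Bfsp2 is higher (at least 0.254 beside at most 0.243), and Aqp1 in OVE853 (at least 5.12) lies above both other groups (at most 3.53).

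Other genes of fiber differentiation gave few calls. The crystallin list had 16 genes tested and 0 called in each contrast, and the median difference of its genes on the log2 scale was -0.16 for OVE853 and 0.54 for OVE918 against WT and 0.92 between the lines. Crygb, a γ-crystallin of fiber cells, followed the split of Birc7, at 2276, 755 and 492 CPM in WT, 683, 7994 and 718 CPM in OVE853, and 10539, 1405, 6534 and 10435 CPM in OVE918. Of 11 fiber membrane and cytoskeleton genes tested (connexins, ephrin receptor, periplakin and others), 0 were called. Their medians were 0.23 and 0.42 against WT and -0.00 between the lines, where 5 were above 0 and 6 below. Against WT, 9 of the 11 were above 0 in OVE853 and 10 in OVE918. The 13 regulators of fiber differentiation had medians of 0.06 and 0.27 against WT and 0.03 between the lines. Above 0 were 8, 10 and 7 of the 13 in these contrasts. Of them only Hsf4, the heat shock factor of the lens, was called, in OVE918 against WT (log2 fold change 1.06, FDR = 0.0276). Hsf4 stood at 50.4 CPM in WT, 49.3 CPM in OVE853 and 105 CPM in OVE918. Its libraries overlapped, since OVE918 replicate 2 (64.1 CPM) lay below WT replicate 1 (69.1 CPM).

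Relatives of single members were likewise compared as lists. Of the other inhibitor of apoptosis family genes, 4 were tested and 0 called, with medians of 0.40 and 0.11 against WT. Of the other DNase genes 3 were tested and 0 called. All 3 were below 0 in both lines against WT, with medians of -0.59 and -0.60. Of 5 other galectins tested, only Lgals1 was called, down in OVE853 (log2 fold change -1.30, FDR = 0.0372), from 165 to 67.0 CPM. Lgals1 stood at 121 CPM in OVE918 (-0.46, FDR = 0.369). In each line 3 of the 5 were below 0 against WT. These lists together gave 0 calls between the lines.

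The tissue label and the transgene were checked in the same libraries. Mouse Tgfb1 counts, the gene row onto which transgene reads could fall, averaged 54.3 ± 6.41 CPM (SD) over the 3 WT libraries, 349.5 ± 11.3 CPM over those of OVE853 and 775 ± 78.0 CPM over those of OVE918, or 2.69 and 3.83 above WT on the log2 scale. All 8 lens epithelium markers were present, with sums of 3297 to 4716 CPM, and only Gja1, a gap junction gene, was called (log2 fold change -2.31 and -3.05). The median log2 fold change of the 8 was -0.13 in OVE853 and -0.42 in OVE918 against WT, where 6 were below 0 and 6 had an unadjusted p under 0.05. Of 7 myofibroblast markers tested, 6 rose in each line. Retinal neuron markers (10 genes) summed to 95.6 to 979 CPM in WT, 24.8 to 75.3 CPM in OVE853 and 28.5 to 157 CPM in OVE918, with WT replicate 3 the highest. For photoreceptors (26.1 to 104 CPM over all libraries), pigmented epithelium (41.6 to 151 CPM) and macrophages (16.2 to 76.9 CPM) the sums were low, with C1qa called up in OVE918. Their part in the member values was not tested.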

How the data were processed

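RNA-seq of 10 pooled lens epithelium samples was analysed from the gene table of raw counts that the authors deposited. Per the study's methods and processing notes, the authors used Cutadapt (5.2) for trimming of paired reads, STAR (2.7.11b) for alignment to GRCm39, and counted read pairs per RefSeq gene with featureCounts (2.0.8), reverse-stranded, so antisense reads were kept apart. Totals were 24073311 to 31908525 counts, and the spread between pools limits precision. All 10 count columns were matched to samples by the short names in the labels, with 0 columns left over.

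Genes with at least 2 FPKM in 5 of 10 libraries were tested, 11097 in all. Exon lengths came from GENCODE vM39 and were matched for 43252 genes by symbol and 22 by synonym, with 7489 unmatched and not tested. TMM factors ran from 0.880 to 1.11. edgeR (4.0.16, R 4.3.3) was used with robust dispersions, a no-intercept design of 3 groups, the quasi-likelihood test and Benjamini-Hochberg adjustment over all genes, after the study's methods. DEGs needed an FDR up to 0.05 and a log2 fold change of 1 or more in either direction. DESeq2 (1.42.0), limma-voom (limma 3.58.1), always with sample weights, and other filters and scalings were alternatives. Likeness and spread used edgeR's log2 CPM (prior count 2). The script was tested on simulated data.

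The members and lists were chosen with earlier results of these data known. Every member was reported in every library, with at most 4 DEGs of each other list by largest fold change and, for each member, the 3 most correlated tested genes, of which 1 is not reported here. The Crygb values by library, the promoter windows shown and the crystallin scaling and R number fits were chosen after values were seen. Replicates are separate pools of mice, so p-values measure the spread between pools.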

Additional observations from a re-analysis of the deposited data

Results flagged for a closer look

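Dnase2b in OVE918 replicate 2 stood at 2.91 CPM, against 24.0, 22.1 and 29.4 CPM in OVE918 replicates 1, 3 and 4. Its gap to the nearest other library, divided by the range of the group on the log2 scale, was 0.877, above the 95% critical value of Dixon's test for 4 samples. Chance passes that value in about 1 in 20 groups, and 10 genes were examined in the OVE918 group. The same library was the lowest OVE918 library for 10 of 10 members.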

How the results depend on the processing

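Under the alternatives, 640 member differences kept their direction and call, 25 turned sign and 10 gained a call, and 66 counts of called members stayed the same and 9 moved. The counts, 0 in each contrast, became 1 in OVE918 against WT with DESeq2 (Birc7, FDR = 0.0100) and in a fit of only the groups compared, and 2 (OVE853) and 1 (OVE918) by the FDR without a minimum fold change. Crystallin scaling, chosen after seeing the data, gave 1 in OVE853 against WT and 1 between the lines (Aqp1). It turned the OVE853 log2 fold change to 0.16 for Mip, 0.27 for Lim2, 0.04 for Bfsp1, 0.35 for Bfsp2 and 0.41 for Aqp5, and those between the lines to -0.04 for Bfsp2, -0.26 for Lgsn, -0.06 for Aqp5 and -0.01 for Grifin. Under crystallin scaling the median log2 fold change of all genes was 0.47 in OVE853 against WT and -0.71 between the lines. Limma-voom with sample weights turned Aqp5 in OVE853 to 0.04 and Lgsn in OVE918 to 0.21, and the cause of these 2 was not tested. Leaving out each library in turn gave 0 to 1 members called in each line against WT (Aqp1 without WT replicate 2, Grifin and, in OVE918, Birc7 without OVE853 replicate 2) and 0 between the lines. Over all genes, these fits gave 334 to 664 DEGs in OVE853 and 523 to 729 in OVE918 against WT. Between the lines they gave 6 to 93. Leaving out libraries moved the OVE853 log2 fold change from -0.54 to 0.14 for Mip, from -0.53 to 0.14 for Lim2, from -1.28 to 0.02 for Bfsp1, from -0.32 to 0.05 for Bfsp2, from -0.51 to 2.94 for Birc7 and from -0.25 to 0.03 for Aqp5, and that of Lgsn from -0.82 to 0.45 in OVE918 and from -0.24 to 1.41 between the lines. Replicate numbers did not pair libraries (r of same-numbered libraries from -0.30 to 0.08), and with the replicate block 0 members were called in each contrast. Over all genes, DEGs in OVE853 and OVE918 against WT (491 and 621) became 1244 and 1587 with edgeR's filter, 1061 and 1548 without one, 129 and 227 in a test against a fold of 2, and 1110 and 744 under crystallin scaling. They became 414 and 571 in a fit of only the groups compared, and 441 and 539 with the replicate block. Between the lines (54) they became 107 with DESeq2, 124 with limma-voom, 97 in a fit of only the groups compared, 28 with the replicate block, 33 with the R number, 0 in the test against a fold of 2 and 1190 under crystallin scaling. Dnase2b entered only the fits with edgeR's filter or none. With as few as 29 counts (Dnase2b) and 72 counts (Birc7) in a library, these members carry the largest counting error.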
